A study of Mus musculus with 10 samples.

Results

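The CXC and CX3C chemokine ligands form a small family of secreted proteins named for the spacing of the first cysteines near their N-terminus. They guide leukocytes to tissue by binding receptors of the CXCR and CX3CR kind, and CXC ligands are often sorted by the receptor they use. Cxcl1, Cxcl2 and Cxcl5 act through Cxcr2 and draw neutrophils, whereas Cxcl9 and Cxcl10 are induced by interferon and draw activated T cells and natural killer cells through Cxcr3. Cxcl12 retains leukocytes and progenitors through Cxcr4 and is made by stromal and vascular cells. Cxcl14 is made by epithelia and fibroblasts. Cxcl16 and Cx3cl1 are membrane-bound ligands of Cxcr6 and Cx3cr1 that can be shed. The 9 ligand genes named here were chosen by their symbols. They are represented by 19 of the 45037 probe sets of the array that are no controls, each of them annotated to 1 gene symbol.

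RNA from the abdominal aorta was hybridised for 4 WT mice and 6 KCASP1Tg mice, 1 array per mouse. The methods describe the KCASP1Tg mice as female and C57BL/6 littermates as the WT controls, whose sex they do not state. All mice were 16 weeks old. KCASP1Tg mice carry human caspase-1 under the keratin 14 promoter, which is active in keratinocytes, and they develop dermatitis spontaneously, so the transgene is not directed to the aorta. The methods count 8 mice for the arrays, and all 10 deposited arrays were used here. The comparison asks which transcripts of the abdominal aorta differed between mice with persistent dermatitis and WT mice.

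The signals are MAS5.0 intensities on a linear scale. Each probe set's log2 signal was compared between the genotypes with limma over 26242 probe sets that reached a signal of 100 on 4 or more arrays, and called at an adjusted p under 0.05. Markers of smooth muscle and of fat were bright: the smooth muscle gene Acta2 had signals of 18138 to 42487 and the adipocyte gene Adipoq of 29503 to 45368, whereas 4 of 7 keratinocyte markers (Krt5, Krt14, Krt1 and Sfn) stayed under 100 on every array. The other 3 were Dsp, at 577 to 2957, Krt10, at 146 to 222, and Lor, at 43.1 to 125. In such bulk samples, fewer cells of a type and less RNA per cell cannot be told apart. Some arrays stood apart. KCASP1Tg 4 was highest of all arrays for 6 of 6 measured B cell and lymph node markers. Their summed signal was 42086 there against 2587 to 5982 on the other KCASP1Tg arrays and 564 to 2102 on the WT arrays. Cxcl13 is 1 of these 6 and the brightest on average. It had 2152 to 4419 on the other KCASP1Tg arrays and 246 to 1205 on the WT arrays, a large part of these sums. KCASP1Tg 4 was highest for 8 of 9 T cell and natural killer cell markers and 8 of 8 neutrophil markers. It was lowest for 6 of 6 smooth muscle markers, with a sum of 30316 against 66748 to 81847 on the other 9 arrays. Heart muscle transcripts were high on WT 4, KCASP1Tg 1 and KCASP1Tg 2, and liver transcripts on WT 1 and WT 3.

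Most genes of the CXC family lie in clusters on chromosome 5. In the RefSeq annotation of GRCm38.p6 Cxcl5, Ppbp, Pf4, Cxcl3, Cxcl15, Cxcl1 and Cxcl2 follow each other there with no other protein-coding gene between them, and Cxcl9, Cxcl10 and Cxcl13 lie further along the same chromosome. Cxcl12 is on chromosome 6, Cxcl14 on chromosome 13, Cxcl16 on chromosome 11 and Cx3cl1 on chromosome 8. Upstream sequences from RefSeq (GRCm38.p6) are shown for Cxcl1 and Cxcl2, which share Cxcr2, and for Cxcl9 and Cxcl10, which share Cxcr3, as their induction by NF-kB and interferon is well known. Each holds 250 bases before the annotated start, written 5′ to 3′ on the strand of the gene. Capitals mark matches on either strand to GGAANTTCC, a core of the NF-kB site, and to GAAANNGAA, a core of the interferon-stimulated response element.
Cxcl1, chr5:90890995-90891244, plus strand: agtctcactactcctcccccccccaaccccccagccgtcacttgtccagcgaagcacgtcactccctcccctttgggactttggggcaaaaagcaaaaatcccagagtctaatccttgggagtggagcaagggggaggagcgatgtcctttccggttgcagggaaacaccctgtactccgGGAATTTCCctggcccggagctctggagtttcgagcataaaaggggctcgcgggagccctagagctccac
Cxcl2, chr5:90903649-90903898, plus strand: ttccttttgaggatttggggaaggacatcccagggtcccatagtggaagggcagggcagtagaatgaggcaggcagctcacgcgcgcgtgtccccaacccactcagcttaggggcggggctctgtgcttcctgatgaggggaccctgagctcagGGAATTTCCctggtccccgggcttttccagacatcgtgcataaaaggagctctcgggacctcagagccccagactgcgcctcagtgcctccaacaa
Cxcl9, chr5:92328080-92328329, minus strand: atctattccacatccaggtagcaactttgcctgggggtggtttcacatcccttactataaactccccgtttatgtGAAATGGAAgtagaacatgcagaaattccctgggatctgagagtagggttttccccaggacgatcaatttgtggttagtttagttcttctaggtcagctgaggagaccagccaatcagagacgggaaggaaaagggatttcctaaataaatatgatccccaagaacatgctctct
Cxcl10, chr5:92348890-92349139, minus strand: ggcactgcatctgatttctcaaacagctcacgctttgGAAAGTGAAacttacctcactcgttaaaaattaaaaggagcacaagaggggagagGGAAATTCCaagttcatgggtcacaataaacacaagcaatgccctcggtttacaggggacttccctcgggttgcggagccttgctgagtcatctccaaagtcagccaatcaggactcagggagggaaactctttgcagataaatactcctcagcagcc

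Cxcl1 and Cxcl2 both held GGAATTTCC, at 70 and 96 bases before the start of the gene, and Cxcl10 held GGAAATTCC at 158 bases. Cxcl9 held GAAATGGAA at 175 bases and Cxcl10 GAAAGTGAA at 213 bases. Of 32851 promoters in the table, 0.813% held GGAANTTCC within the same 250 bases and 7.13% held GAAANNGAA. Of the 9 members 7 have a promoter in the table, and 3 of the 7 held GGAANTTCC and 3 GAAANNGAA. The patterns were chosen after the sequences were seen. These matches describe the sequences, and no binding was measured.

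No ligand passed the test between the genotypes by limma. Of the 19 probe sets, 10 passed the signal filter, from 7 genes, and 0 of the 10 were called higher and 0 lower, where 0.0686% of all probe sets tested were called higher and 0% lower. Before adjustment limma had a p under 0.05 for 1 of the 10, Cx3cl1, which was higher, against 4.52% of all probe sets tested that were higher and 3.42% lower, and the exact Mann-Whitney test had 0. No tested ligand probe set had every KCASP1Tg array above every WT array or the reverse, against 1.98% and 0.949% of all probe sets tested. The log2 fold change was positive for 8 of the 10, with a median of 0.24 and a range from -0.20 to 0.58, beside 49.6% positive and a median of -0.0018 over all probe sets tested. Without KCASP1Tg 4 it turned negative for Cxcl10 (-0.21) and for both probe sets of Cxcl16 (-0.0046 and -0.03), and the other positive ones stayed positive. The highest signal was on KCASP1Tg 4 for 5 of the 10, against 23.2% of all probe sets tested. Because of the filter these 10 are the brighter ones. Among the 8 positive ones, Cxcl1 1457644_s_at could pass the filter only by being high in KCASP1Tg mice, so its direction is given as a description. The 9 others, among them the only probe sets of Cxcl2 and Cxcl5, had no signal above 127.

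**Figure D1:**
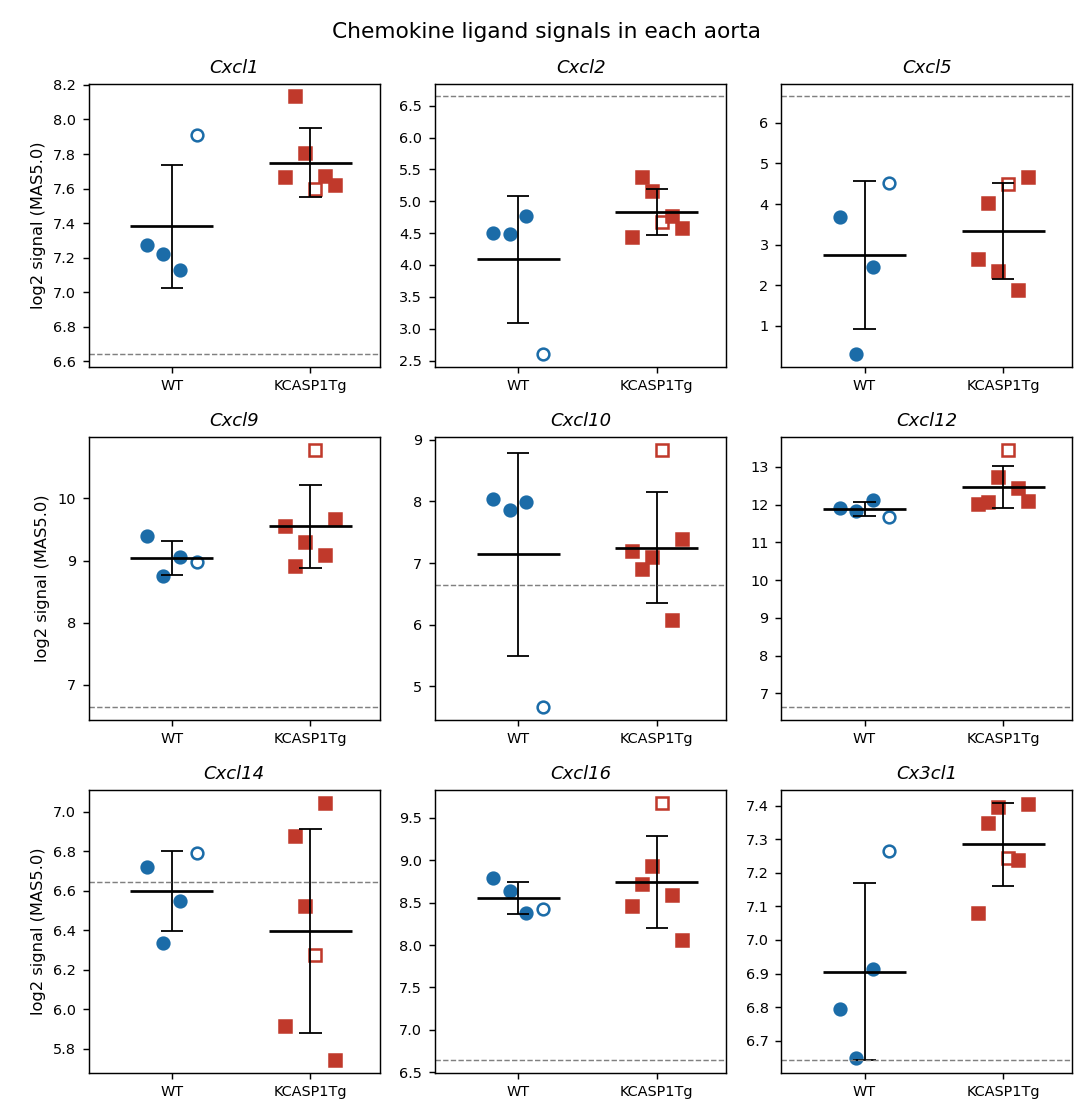
Log2 of the MAS5.0 signal of the 9 ligands, by the probe set with the highest mean signal, for the WT arrays (circles, n = 4) and the KCASP1Tg arrays (squares, n = 6); lines give mean ± SD, with a separate vertical scale per gene, open symbols for WT 4 and KCASP1Tg 4, and a dashed line at a signal of 100. The genotypes overlap for every ligand, KCASP1Tg 4 is the highest point for Cxcl9, Cxcl10, Cxcl12 and Cxcl16, and Cxcl2 and Cxcl5 lie below the dashed line.

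Of the ligands of Cxcr2, Cxcl2 and Cxcl5 were dim. Cxcl2, which macrophages release early in inflammation, had a signal of 22.7, 22.4, 27.3 and 6.10 in WT mice and of 21.7 to 41.5 (median 26.5) in KCASP1Tg mice. The groups overlapped, and the lowest value was that of WT 4. On the log2 scale the difference was 0.74 (95% interval -0.17 to 1.65, exact Mann-Whitney p = 0.171), and 0.25 without WT 4. Cxcl5, an epithelial and adipose tissue ligand, had a signal of 12.9, 1.25, 5.43 and 23.0 in WT mice and of 3.70 to 25.2 (median 11.2) in KCASP1Tg mice. The WT and KCASP1Tg values overlapped over almost their whole range, and the 95% interval of the log2 difference, from -1.34 to 2.53, leaves room for a large change in either direction (exact Mann-Whitney p = 0.762).

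Cxcl1, the keratinocyte-derived chemokine of the mouse, has 3 probe sets that gave different pictures. The brightest, 1441855_x_at, had a signal of 155, 149, 139.8 and 240.3 in WT mice and of 194 to 281 (median 204) in KCASP1Tg mice. All KCASP1Tg values were above those of WT 1, WT 2 and WT 3, and WT 4 lay above all of them but KCASP1Tg 2. This gave a log2 fold change of 0.37 (standard error 0.17, 95% interval -0.01 to 0.75, adjusted p = 0.651 from limma). A probe set ending in _x_at or _s_at holds probes that can also bind other transcripts. The second, 1457644_s_at, differed by 0.25 on the log2 scale (adjusted p = 0.716 from limma), with WT signals of 71.1 to 100.2 and KCASP1Tg signals of 82.1 to 119.6. Among WT arrays it reached 100 only on WT 1. It could thus enter the test only by being high in KCASP1Tg mice, and its difference is given as a description. The third, 1419209_at, whose probes are specific to the gene by the array's naming, was too dim to be tested, at 55.8 to 82.5 in WT mice and 48.7 to 107 in KCASP1Tg mice (log2 fold change 0.21, exact Mann-Whitney p = 0.257). The log2 signals of the 2 brighter probe sets of Cxcl1 had a Pearson correlation of -0.06 over the 10 arrays. Thus the arrays ranked differently by each of these probe sets, although all 3 differences were positive.

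Of the interferon-induced ligands, Cxcl9 was above 100 on every array by its brighter probe set and Cxcl10 on 8 of the 10. Cxcl9 had a signal of 675, 428, 529.8 and 504 in WT mice and of 484 to 1764 (median 691) in KCASP1Tg mice. Only KCASP1Tg 4 stood clear of the rest, at 2.17 times the next KCASP1Tg array, and 3 KCASP1Tg arrays exceeded the highest WT array. The log2 fold change was 0.51 (standard error 0.32, 95% interval -0.20 to 1.22, adjusted p = 0.768 from limma), and 0.26 without KCASP1Tg 4. A second, dimmer probe set of Cxcl9, 1456907_at, gave 0.41 (exact Mann-Whitney p = 0.114).

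Cxcl10 showed the widest spread among the tested ligands. Its signal was 264, 233, 254 and 25.4 in WT mice and 67.4 to 458 (median 142) in KCASP1Tg mice. The other KCASP1Tg arrays, from 67.4 to 167, were all lower than WT 1, WT 2 and WT 3, whereas KCASP1Tg 4 was higher than every WT array and WT 4 was lower than every KCASP1Tg array. As a result the direction of the difference rested on single arrays: the log2 fold change was 0.11 over all 10 arrays (95% interval -1.45 to 1.67, adjusted p = 0.995 from limma), -0.21 without KCASP1Tg 4 and -0.72 without WT 4. WT 4 had the highest brown adipocyte and heart muscle sums of all arrays (91836 and 55456), and KCASP1Tg 4 the highest T cell and natural killer cell sum (7649, against 596 to 1471 on the other 9). The part of these cell types in the Cxcl10 and Cxcl9 signals was not tested.

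Cxcl12, the ligand of Cxcr4, was measured by 2 bright probe sets that gave different values. By 1448823_at its signal was 3873, 3644, 4454 and 3254 in WT mice and 4127 to 11214 (median 4936) in KCASP1Tg mice. Here 3 of the 6 KCASP1Tg arrays lay above all WT arrays, led by KCASP1Tg 4 and then KCASP1Tg 3 at 6836. The genotypes differed by 0.58 on the log2 scale (standard error 0.27, 95% interval -0.02 to 1.18, adjusted p = 0.65 from limma; exact Mann-Whitney p = 0.0667), and 0.38 without KCASP1Tg 4. By 1417574_at the signal was 2091, 1730, 1469 and 2141 in WT mice and 1297 to 2220 (median 1696) in KCASP1Tg mice, with a log2 fold change of -0.08 (95% interval -0.47 to 0.31, adjusted p = 0.972 from limma). The log2 ratio of the first to the second was 0.60 to 1.60 in WT mice and 0.94 to 2.40 in KCASP1Tg mice, a mean difference of 0.66. An exact Mann-Whitney test of that ratio, chosen after the values were seen and made for 3 genes, gave p = 0.0667, or 0.2 after Benjamini-Hochberg adjustment. The ratio was thus not called different between the genotypes. With so few arrays, the test cannot settle whether the ratio differs. The third probe set, 1439084_at, was dim, with no signal above 77.2.

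**Figure D2:**
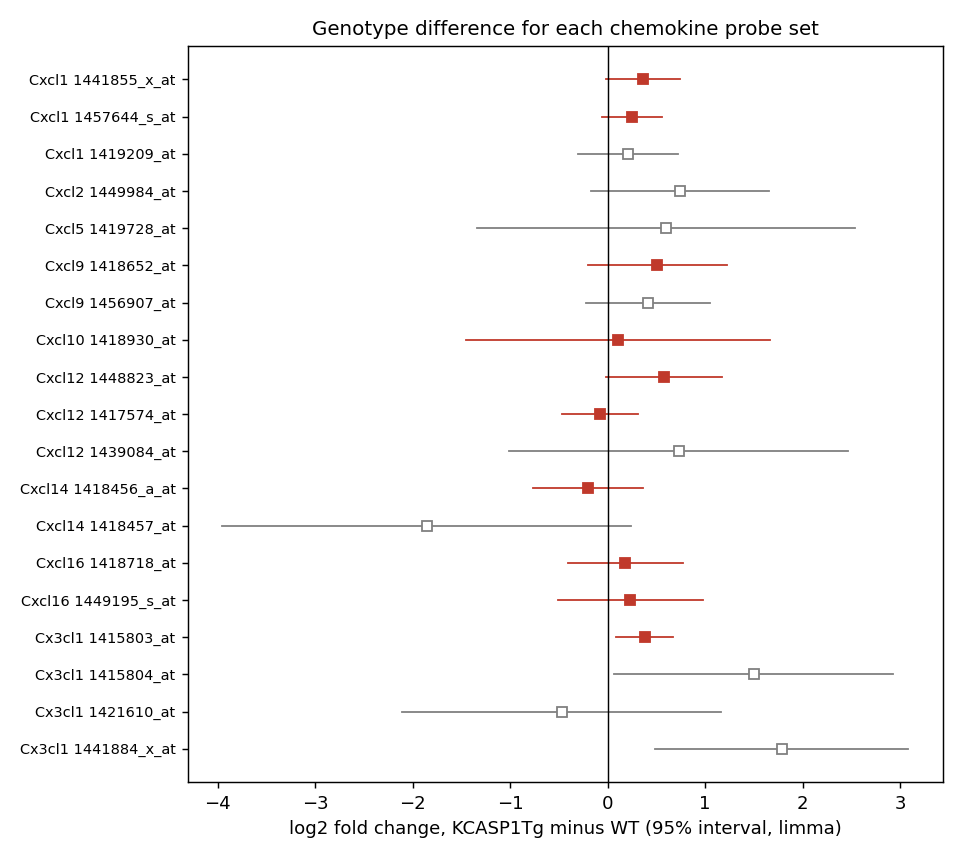
Log2 fold change (KCASP1Tg minus WT, horizontal axis) with its 95% interval from limma for each of the 19 ligand probe sets, filled for the 10 tested and open grey for the 9 below the signal filter, which come from a fit without it. Among the tested probe sets the interval of Cx3cl1 1415803_at, from 0.09 to 0.67, does not reach 0, and the widest is that of Cxcl10.

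Cx3cl1, or fractalkine, which endothelial cells present to monocytes, had a signal of 111, 100.3, 121 and 154 in WT mice and of 135 to 169 (median 157) in KCASP1Tg mice by its brightest probe set, 1415803_at. All 6 KCASP1Tg values were above WT 1, WT 2 and WT 3, and WT 4 lay among them. This was a small difference with a narrow spread: the log2 fold change was 0.38 (standard error 0.13, 95% interval 0.09 to 0.67), or 1.30-fold, and it did not pass over all probe sets (adjusted p = 0.484 from limma; exact Mann-Whitney p = 0.0667). Without WT 4 it was 0.50, still with an adjusted p of 0.251 from limma. The overlap then ended by construction, as WT 4 was the only WT array among the KCASP1Tg values. The signals are close to the filter of 100. Of its 3 dimmer probe sets, 1415804_at and 1441884_x_at had higher means in KCASP1Tg mice (61.6 against 24.8, and 19.3 against 5.36) and 1421610_at a lower mean (10.7 against 18.8). Their adjusted p-values from limma in a fit without the filter were 0.609 or more. Before adjustment the exact Mann-Whitney p was 0.0381 for 1415804_at, 0.0381 for 1441884_x_at and 0.762 for 1421610_at. The summed signal of 8 endothelial markers was 15687 to 17923 in WT mice and 12932 to 19144 in KCASP1Tg mice.

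Cxcl16, a scavenger receptor and ligand made by macrophages and dendritic cells, had a signal of 442, 399.9, 332 and 345 in WT mice and of 266 to 819 (median 404) in KCASP1Tg mice. The highest value was again that of KCASP1Tg 4, 1.67 times the next KCASP1Tg array, and the other KCASP1Tg arrays spread to both sides of the WT arrays. The log2 fold change was 0.18 (95% interval -0.40 to 0.77, adjusted p = 0.948 from limma) and -0.0046 without KCASP1Tg 4. The second probe set, 1449195_s_at, gave 0.23 and -0.03 in the same way, and the log2 signals of both had a Pearson correlation of 0.93 over the 10 arrays. KCASP1Tg 4 also had the highest sum of 9 monocyte and macrophage markers, 49834 against 12517 to 18828 in WT mice and 17382 to 34073 in the other KCASP1Tg mice, and the part of these cells in the Cxcl16 signal was not tested.

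Cxcl14, a ligand abundant in epithelia, was near the filter. Its signal was 106, 80.9, 93.7 and 111 in WT mice and 53.6 to 132 (median 84.6) in KCASP1Tg mice. KCASP1Tg values lay on both sides of the WT range, 2 above it and 3 below. Its log2 fold change was -0.20 (95% interval -0.77 to 0.36, adjusted p = 0.929 from limma). The dimmer probe set, 1418457_at, had a mean of 50.2 ± 15.0 (SD, n = 4) in WT mice and 23.3 ± 21.7 (SD, n = 6) in KCASP1Tg mice, with 5 of the 6 KCASP1Tg arrays below every WT array (exact Mann-Whitney p = 0.0381 before adjustment). At such signals it did not enter the test, and its log2 fold change of -1.85 had a 95% interval from -3.95 to 0.24.

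**Figure D3:**
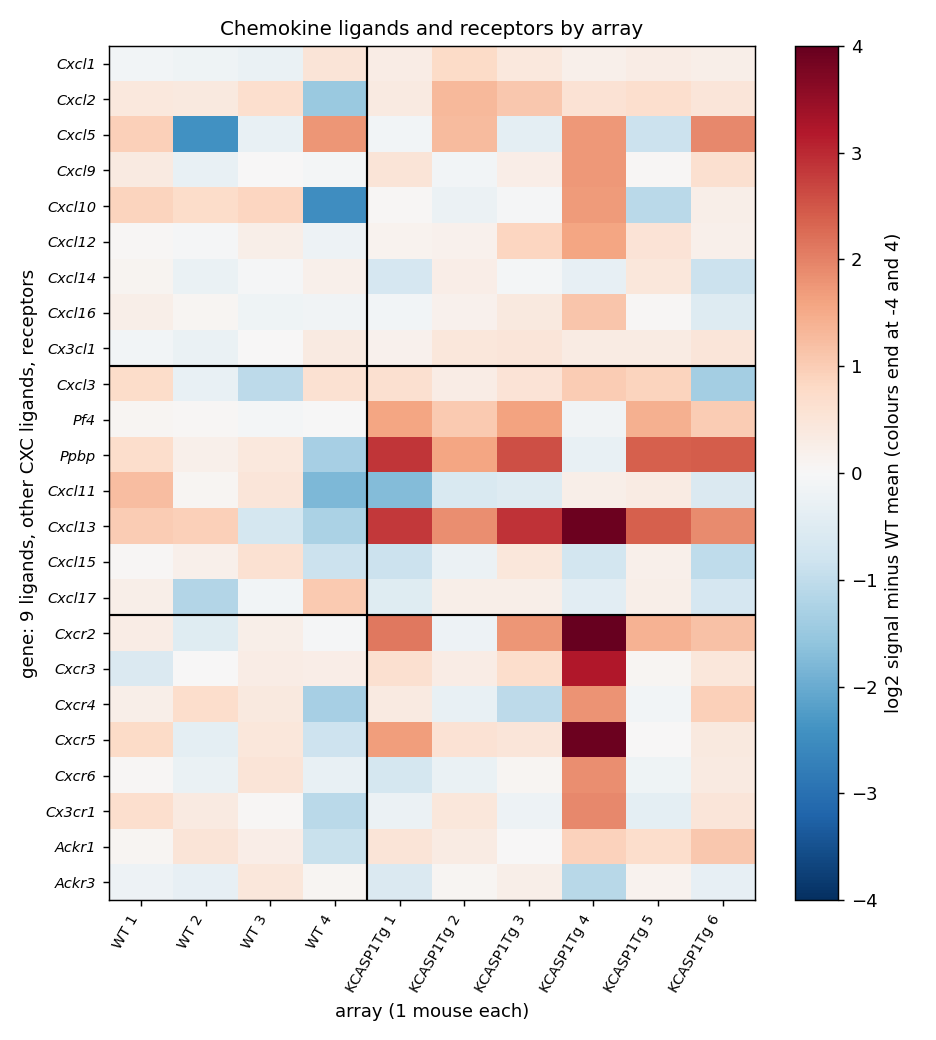
Log2 signal minus the WT mean of the gene, in colour (red higher, blue lower), for the 9 ligands, 7 other CXC ligands and 8 receptors in rows, and the 4 WT and 6 KCASP1Tg arrays in columns. In the upper block the deepest colours are those of Cxcl10 on WT 4 and of the dim Cxcl5 on WT 2, while Cxcl13 is red on all KCASP1Tg arrays and Pf4 and Ppbp on all but KCASP1Tg 4.

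The other CXC ligands on the array numbered 7, of which 4 were tested and 0 were called in either direction. Their median log2 fold change was 1.51, beside -0.0018 over all probe sets tested. Cxcl13, which draws B cells through Cxcr5 and organises lymphoid follicles, had a signal of 1205, 1170, 369 and 246 in WT mice and of 2152 to 9023 (median 3701) in KCASP1Tg mice. No KCASP1Tg value reached down to the highest WT value, and KCASP1Tg 4 was the highest of all. Its log2 fold change was 2.63 (standard error 0.54, 95% interval 1.44 to 3.81), or 6.17-fold, with an adjusted p of 0.135 from limma and an exact Mann-Whitney p of 0.00952, the smallest that 4 arrays against 6 allow. Over 22 alternatives the log2 fold change was 2.20 to 2.96, and it passed in 1 of them, array weights (adjusted p = 0.0368 from limma, range over all alternatives 0.0368 to 0.798). In KCASP1Tg 4 the follicle and B cell genes Cr2, Ms4a1 and Cd79a, and Glycam1 of lymph node venules, were highest as well. On the other KCASP1Tg arrays Glycam1 was 4.82 to 622 and Ms4a1 142 to 738, against 3.05 to 127 and 131 to 334 in WT mice, and their part in the Cxcl13 signal was not tested.

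Pf4 and Ppbp, the chemokines stored in platelet granules, lie between Cxcl5 and Cxcl1 on chromosome 5. Pf4 had a signal of 2149, 2086, 1915 and 1992 in WT mice and of 1864 to 6180 (median 4809) in KCASP1Tg mice. For both genes 5 of the 6 KCASP1Tg arrays were above every WT array, and KCASP1Tg 4 was the exception, at 1864 for Pf4 and 756 for Ppbp. The log2 fold change was 1.09 for Pf4 (adjusted p = 0.342 from limma) and 1.92 for Ppbp (adjusted p = 0.443), and without KCASP1Tg 4 it was 1.33 for Pf4, which then passed (adjusted p = 0.00858). All 6 platelet markers summed to 9571 to 17738 on the KCASP1Tg arrays other than KCASP1Tg 4, to 3944 on KCASP1Tg 4 and to 3025 to 4972 in WT mice, a list that includes both genes. Cxcl17 differed by -0.14 on the log2 scale (adjusted p = 0.981 from limma). Cxcl3, Cxcl11 and Cxcl15 were below the filter, with log2 fold changes of 0.34, -0.48 and -0.36. Cxcl11 is known as another ligand of Cxcr3, but the RefSeq annotation used does not list it among the protein-coding genes of chromosome 5.

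Receptor transcripts mark the cells that can answer these ligands. Of 9 receptors listed, 8 were analysed here and 5 were tested, and 0 were called in either direction (median log2 fold change 0.34, and 0.02 without KCASP1Tg 4). Cxcr2, the neutrophil receptor of Cxcl1, Cxcl2 and Cxcl5, had a signal of 21.0, 12.2, 20.4 and 16.7 in WT mice and of 14.8 to 316 (median 51.8) in KCASP1Tg mice. In this dim range 5 of the 6 KCASP1Tg arrays lay above every WT array (log2 fold change 1.74, 95% interval 0.19 to 3.28, exact Mann-Whitney p = 0.0667). The 8 neutrophil markers measured, Cxcr2 among them, summed to 5900 to 44367 in KCASP1Tg mice against 629 to 838 in WT mice. Most of each KCASP1Tg sum came from S100a8 (2705 to 21043 against 110 to 132) and S100a9 (2399 to 20293 against 85.9 to 122). The paper had named both as upregulated in this comparison. The genotypes did not overlap for 3 of the 8, S100a8, S100a9 and Stfa2l1, all higher in KCASP1Tg mice, beside 1.98% of all probe sets tested. Stfa2l1 was below the signal filter. The others overlapped, such as Csf3r (71.8 to 585 against 43.9 to 86.1, adjusted p = 0.456 from limma) and Il1r2 (35.0 to 551 against 38.9 to 91.6, adjusted p = 0.683 from limma). Both reached the filter through KCASP1Tg arrays alone, so their values are given as a description. The part of neutrophils in the Cxcr2 signal was not tested. Cxcr3, the receptor of Cxcl9 and Cxcl10, had a signal of 72.2 to 133 in WT mice, 113 to 175 on 5 KCASP1Tg arrays and 1005 on KCASP1Tg 4 (log2 fold change 0.90, adjusted p = 0.753 from limma, and 0.44 without KCASP1Tg 4). Cxcr5, the receptor of Cxcl13, and Cxcr6, the receptor of Cxcl16, were also highest on KCASP1Tg 4, at 649 and 327, and were below the filter.

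Cxcr4 had a signal of 275 to 1114 in WT mice and of 336 to 2401 in KCASP1Tg mice, and Cx3cr1 of 55.6 to 189 and 90.4 to 450. Their log2 fold changes, 0.28 and 0.34, were -0.03 and 0.02 without KCASP1Tg 4, and -0.16 and -0.02 without WT 4. Both were lowest on WT 4, and both were highest on KCASP1Tg 4. Ackr1, a venular receptor that binds many chemokines without signalling in the usual way, differed by 0.59 on the log2 scale (95% interval -0.05 to 1.23, adjusted p = 0.666 from limma), and by 0.30 without WT 4. Ackr3, a scavenger of Cxcl12, had -0.25 (adjusted p = 0.91), or -0.08 without KCASP1Tg 4, and was lowest on KCASP1Tg 4, at 1711 against 2491 to 5061 on the other 9 arrays.

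**Figure D4:**
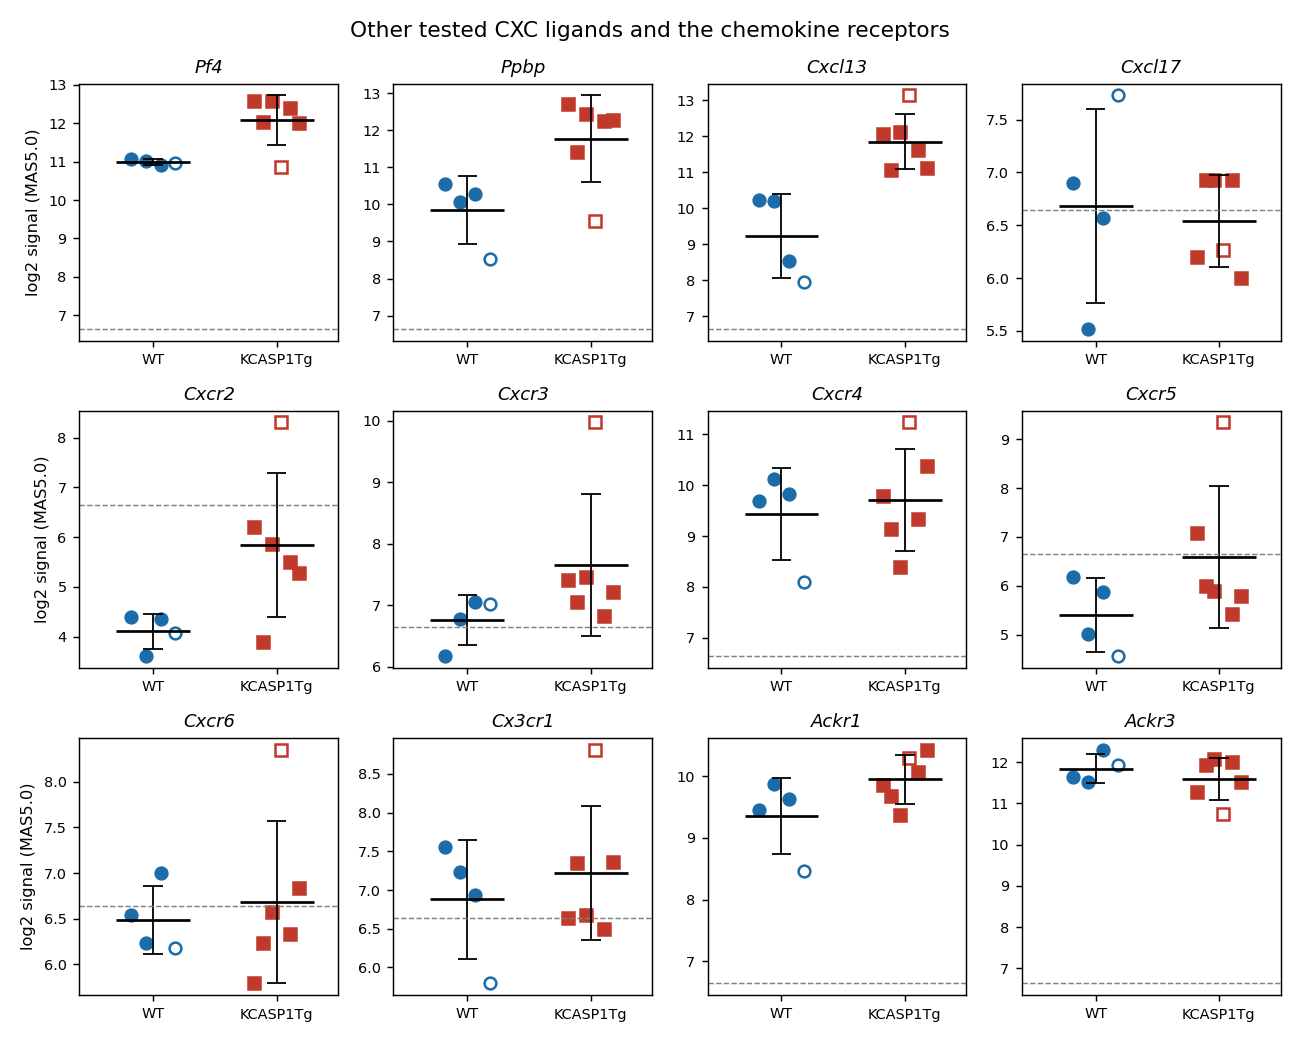
Log2 of the MAS5.0 signal of the 4 other CXC ligands tested and of 8 receptors for the WT arrays (circles, n = 4) and the KCASP1Tg arrays (squares, n = 6); lines give mean ± SD, with a separate vertical scale per gene, open symbols for WT 4 and KCASP1Tg 4, and a dashed line at a signal of 100. Cxcl13 is the gene without overlap between the genotypes, and KCASP1Tg 4 is the highest point for Cxcr2, Cxcr3, Cxcr4, Cxcr5, Cxcr6 and Cx3cr1.

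Enzymes that release or trim chemokines were called in 0 of 6 tested genes, with a median log2 fold change of 0.03, which turned to -0.03 without KCASP1Tg 4. Adam10 and Adam17, which shed Cx3cl1 and Cxcl16 from the membrane, had log2 fold changes of -0.04 (95% interval -0.30 to 0.22) and 0.10 (95% interval -0.21 to 0.42, and 0.02 without KCASP1Tg 4), and were added to the genes chosen by rule after their values were seen. Mmp8, the neutrophil collagenase, had signals of 17.8 to 42.0 in WT mice and of 135 to 1271 in KCASP1Tg mice. It reached the signal filter through the 6 KCASP1Tg arrays alone, so it could enter the test only by being high there, and its log2 fold change of 3.20 (adjusted p = 0.108 from limma, and 0.00804 without KCASP1Tg 4) is given as a description. Mmp2, a gelatinase of stromal cells that can cleave Cxcl12, had -0.57 (adjusted p = 0.527), and Mmp9 0.41 (adjusted p = 0.8), or 0.21 without KCASP1Tg 4.

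The listed genes of interleukin-17, NF-kB and interferon signalling, interferon-induced genes among them, gave small positive medians and no calls. Of 13 genes of interleukin-17 and NF-kB signalling, 0 were called and 10 were positive on the log2 scale, beside 49.6% of all probe sets tested (median 0.24, and 0.16 without KCASP1Tg 4). The genotypes did not overlap for 4 of them, Nfkbiz, Cebpd, Tnfaip3 and Il17ra, all higher in KCASP1Tg mice (the last 2 named after their values were seen), where 1.98% of all probe sets tested were higher without overlap. Nfkbiz, a nuclear co-factor of NF-kB induced by interleukin-17, had 0.66 (standard error 0.13, adjusted p = 0.126 from limma), Cebpd, a transcription factor of the same response, 1.08 (adjusted p = 0.233), and Nfkbia, the inhibitor of NF-kB, 0.56 (adjusted p = 0.461). Of 14 interferon signalling and interferon-induced genes, 0 were called and 10 were positive, with a median of 0.17, and of 0.07 without KCASP1Tg 4. The genotypes did not overlap for 1 of the 14, Rsad2. Rsad2, an antiviral enzyme, had 1.11 (adjusted p = 0.144), Ifngr1, a receptor chain for interferon gamma, 0.52 (adjusted p = 0.494), and Igtp, an interferon-induced GTPase, 0.53 (adjusted p = 0.496). Rsad2 passed without KCASP1Tg 4 (1.26, adjusted p = 0.018).

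The genes whose log2 signals followed each ligand most closely over the 10 arrays are given as a description, as the arrays share genotype and cell makeup. For Cxcl9 they were Trbv1, Limd2 and Gimap7, which are expressed in lymphocytes, with a Pearson correlation of 0.95 to 0.96, and of 0.79 to 0.83 over the 9 arrays without KCASP1Tg 4. For Cxcl10 they were Tns3, Stk11ip and Gbp7, with 0.94 to 0.97, and 0.93 to 0.96 without KCASP1Tg 4. Gbp7 is an interferon-induced GTPase. For Cxcl12 they were Oas1a, an interferon-induced gene, Ms4a6b and Rpl35 (0.96 to 0.98, and 0.89 to 0.94 without KCASP1Tg 4). For Cxcl16 they were Edem3, Frmd4b and Akap13 (0.95 to 0.98, and 0.85 to 0.94 without KCASP1Tg 4). For Cxcl1 they were Mtmr14, Stxbp2 and Aste1 (0.92 to 0.93), for Cxcl14 Ctcflos, Impa1 and P3h1 (0.93 to 0.95) and for Cx3cl1 Tha1, Smg5 and Rps19bp1 (0.90 to 0.93).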

How the data were processed

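RNA of each mouse was hybridised by the authors to 1 Affymetrix mouse genome array. MAS5.0 gave the intensities, which were scaled so that the trimmed mean of every array was 500. The deposited intensities are linear and precede the floor, log2 step and mean subtraction of the methods. Genome builds do not enter these values. Of 45101 probe sets, 64 controls were left out, and symbols came from the platform annotation, updated by gene identifier (34741 of 34945 probe sets with 1 symbol).

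Signals below 1 were set to 1 (none of the ligand signals was), and log2 values were tested with limma 3.58.1 in R 4.3.3, with genotype as the only term and Benjamini-Hochberg adjustment over the 26242 probe sets at 100 or more on at least 4 arrays. The exact Mann-Whitney test that the methods name was computed beside it (scipy 1.17.1). Tests are two-sided, and the mice are separate animals. Where several probe sets measure a gene, the brightest on average leads and the others are given. Probe sets below the filter take values from a fit without it. Steps were tested on simulated data. The number of arrays limits the precision. No depth applies to arrays.

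The ligands and gene lists were chosen with earlier results of these data known. Named are all 9 ligands, the listed ligands and receptors, the 3 tested genes with the smallest p of each other list, the 3 genes most correlated with each tested ligand, and markers. Other settings tried were a floor of 16, a pseudocount of 50, the filter, normalization, centring, an intensity trend, array weights, the replicate number as a block and each array left out. Detection calls and scan dates were not used here.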

Additional observations from a re-analysis of the deposited data

Results flagged for a closer look

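In 28 probe sets (the 19 of the ligands and 9 tested ones of other CXC ligands and receptors) each genotype was searched for an array far from the others, and 5 of the 56 groups held one, where chance gives about 1 in 20, or 2.8. WT 4 had a Cxcl10 signal of 25.4, when the other WT mice had 233 to 264, and a Cxcl2 signal of 6.10, when they had 22.4 to 27.3. KCASP1Tg 4 had a Pf4 signal of 1864 (other KCASP1Tg mice 4118 to 6180), a Cxcr3 signal of 1005 (113 to 175) and a Cx3cr1 signal of 450 (90.4 to 165).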

How the results depend on the processing

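In each of 22 alternatives 0 ligand probe sets were called higher and 0 lower, and of 191 log2 fold changes of single ligands 184 kept their direction. Of these 191 values 155 had a test, of which 0 passed, and 36, of Cxcl2 and Cxcl5, had none. The exact Mann-Whitney test bears on no call, as its smallest adjusted p over the whole array was 0.325. Cxcl10 reversed with a pseudocount of 50 (-0.031), with array weights (-0.88), without WT 4 (-0.72), without KCASP1Tg 4 (-0.21) and without WT 4, KCASP1Tg 1 and KCASP1Tg 2 (-0.61). Cxcl16 reversed without KCASP1Tg 4 (-0.0046) and Cxcl5 without WT 2 (-0.21). Over the leave-one-out fits the log2 fold change ran from -0.72 to 0.41 for Cxcl10, from -0.0046 to 0.32 for Cxcl16 and from -0.21 to 1.19 for Cxcl5. The number of ligand probe sets with every KCASP1Tg array above every WT array was 0 to 2 over the leave-one-out fits, 1 without WT 3 (Cxcl12 1448823_at) and 2 without WT 4 (Cx3cl1 1415803_at and Cxcl1 1441855_x_at). It was 1 without WT 1 and WT 3 and 2 without WT 4, KCASP1Tg 1 and KCASP1Tg 2, a pair of settings chosen after seeing the data. Groups separate more easily with fewer arrays, and the share over all probe sets in these fits is not given here. Genes of the pathway lists called higher numbered 0 over all arrays, 6 with array weights (Cxcl13, Pf4, Ppbp, Mmp8, Nfkbiz and Rsad2) and 0 to 3 in the leave-one-out fits, with 3 without KCASP1Tg 4 (Pf4, Mmp8 and Rsad2). Mmp8 entered these counts through the KCASP1Tg arrays alone. Over the whole array 18 probe sets were called higher and 0 lower, and these counts were 204 and 63 with array weights, 61 and 8 without KCASP1Tg 4, 39 and 2 without KCASP1Tg 6, 10 and 0 without KCASP1Tg 1, 12 and 0 without KCASP1Tg 2 or KCASP1Tg 5, 0 and 0 with the exact Mann-Whitney test or without WT 1 and WT 3, and 2 and 0 without WT 4, KCASP1Tg 1 and KCASP1Tg 2. The cause was not tested. No pairing of the mice by label number is described. Deviations of same-numbered arrays correlated from -0.43 to 0.11, which does not settle whether mice were paired. With the replicate block 0 ligand probe sets and 0 probe sets of the whole array were called (Cxcl1 0.42 and Cx3cl1 0.36 on the log2 scale). KCASP1Tg 5 and KCASP1Tg 6 have no WT array of their number, so this fit had little power to call any.

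The 9 ligand probe sets below the filter, with those of Cxcl2 and Cxcl5 among them, had no test, detection calls were not used, and the number of arrays limits the precision of all.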
